A study of Homo sapiens with 6 samples.

Results

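The transcripts described here belong to 10 genes that mark replication origins and license them for firing: ORC1 to ORC6, CDC6, CDT1, GMNN and DBF4. They were picked by gene name from a table of 26364 genes, and 10 of 10 had a row and passed the filter on low values (a mean of at least 10 normalized counts), among 13297 genes tested. The table comes from MV4-11, an established human acute myeloid leukaemia line with an internal tandem duplication in the receptor tyrosine kinase gene FLT3. A group of 3 libraries was made from cells given 10 nM of 22d, which is known as an inhibitor of the deacetylase HDAC8, and the other group of 3 from cells given the vehicle DMSO, each for 18 hours. All libraries come from 1 cell line in the same medium, and whether replicates came from separate cultures is not stated. Each p-value therefore reflects variation among these 6 libraries alone, part or all of which may be technical.

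Origin licensing prepares DNA for a single round of copying. In G1 the origin recognition complex, built of the ORC subunits, sits on DNA, and CDC6 and CDT1 help it to load the MCM helicase as an inactive ring around the duplex. Geminin, the product of GMNN, binds CDT1 from S phase on and stops further loading, and the kinase CDC7 with its activating subunit DBF4 starts the loaded helicase. Several of these genes, ORC1 and CDC6 among them, are textbook targets of E2F transcription factors, which the retinoblastoma family of pocket proteins restrains.

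The libraries held between 19995430 and 23749257 reads in genes. The first principal component of the log2 values held 80.5% of the variance and put 22d replicate 1 at 64.3, further from the DMSO libraries (-55.4 to -41.4) than 22d replicates 2 and 3, at 39.9 and 44.2. Replicate 3 with 22d had reads in 19285 genes, against 16268 to 17055 genes in the other libraries. Markers of the leukaemia line, 10 of 10, had reads in every library, with a summed level of 58569 to 70539 normalized counts with 22d and 86066 to 106799 with DMSO. The lysozyme gene LYZ, singled out after its values were seen, held 11407 to 21870 of this sum with 22d and 38415 to 56489 with DMSO, and the other 9 markers summed to 47162 to 51141 with 22d and 46520 to 56266 with DMSO, which overlap. In limma's test 2 of the 10 markers were called lower, LYZ and MPO, 2 higher, PTPRC and FLT3, and 6 did not pass. Over all genes tested, 29.6% were called lower and 28.5% higher. The sum of 9 markers hides changes of single genes. MPO averaged 65.6 normalized counts with 22d and 400 with DMSO, and PTPRC 2231 with 22d and 712 with DMSO. Of 8 markers of other cell types, 4 had reads in every library, and their sum was 883 to 1019 normalized counts with 22d and 452 to 605 with DMSO, with PECAM1 and KRT8 called higher. The T cell gene CD3E, the epithelial gene EPCAM and the globin gene HBB had at most 5 reads in any 22d library and 0 in every DMSO library. The liver gene ALB had 0, 1 and 4 reads in 22d replicates 1 to 3, and the fibroblast gene COL1A1 had 3, 7 and 18. In DMSO replicates 1 to 3, ALB had 0, 0 and 1 reads and COL1A1 had 2, 1 and 1. All of these low genes had their most reads in 22d replicate 3. The part of these differences in the results was not tested.

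With 22d, 6 of the 10 licensing transcripts fell (CDC6, ORC6, ORC1, GMNN, CDT1 and DBF4), 1 rose (ORC4) and 3 did not pass the test (ORC2, ORC3 and ORC5). A gene was called at an adjusted p under 0.05 in limma's test of log2(value + 1), adjusted over all genes tested; 29.6% of the 13297 genes were called lower and 28.5% higher in the same fit. At least 2-fold falls were seen for 4 of the 10 members, CDC6, ORC6, ORC1 and GMNN, where 9.87% of all genes were called with a fall of that size. Every 22d library lay below every DMSO library for 6 of the 10 members, which was so for 33.3% of all genes; these 6 include ORC5 and leave out DBF4. The members' median log2 fold change was -0.64, beside 0.0055 over all genes tested. In bulk RNA, fewer cells in a phase of the cell cycle and less RNA per cell cannot be told apart.

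**Figure D1:**
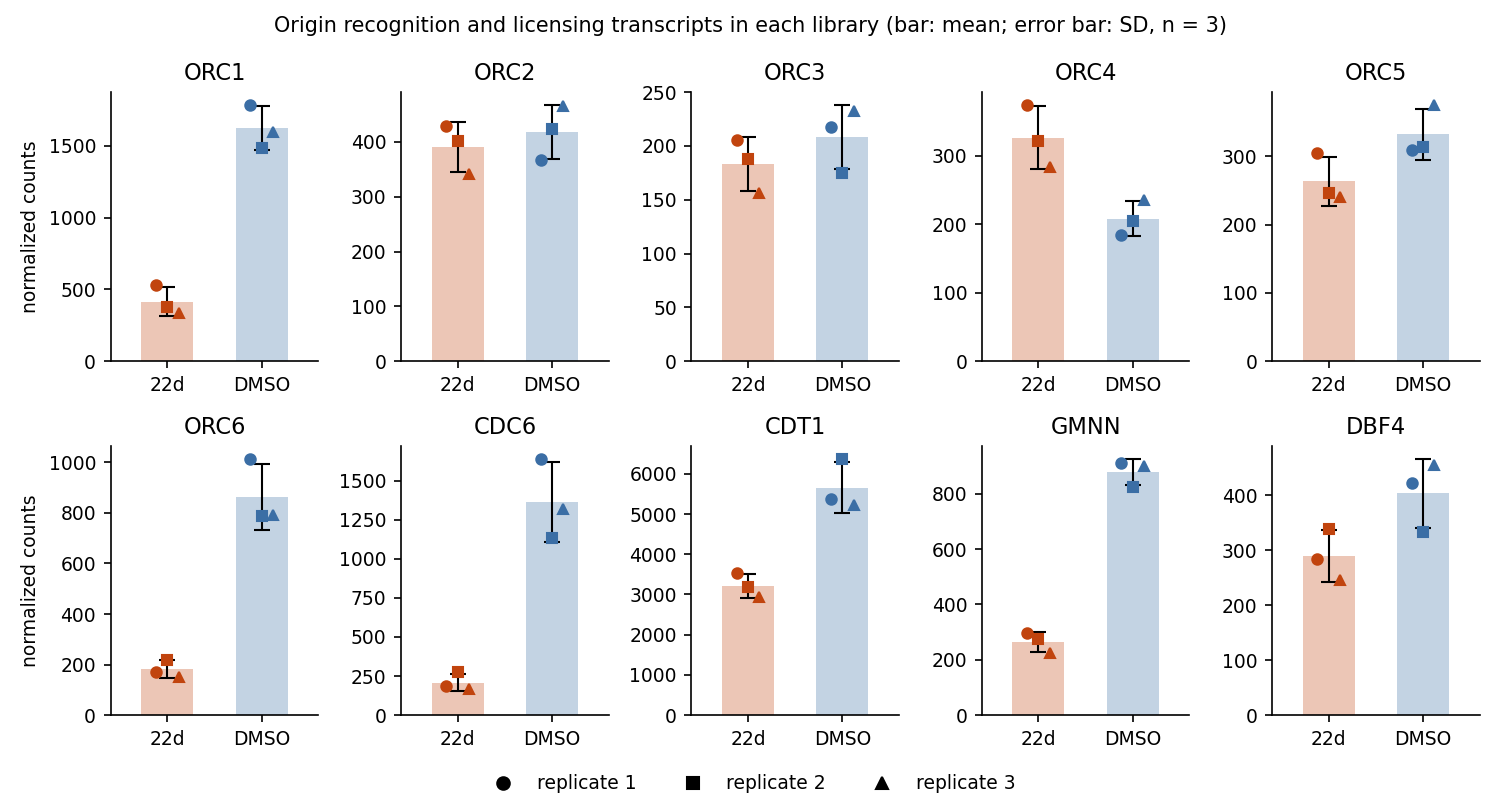
Normalized counts (y axis, linear, from 0, own scale per gene) of the 10 transcripts in 3 libraries with 22d and 3 with DMSO; bars are means, error bars SD, and symbols the replicates. CDC6, ORC6, ORC1 and GMNN stand far apart between the groups, ORC2, ORC3 and DBF4 overlap, and ORC4 is higher in each library with 22d.

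ORC1 encodes the largest ORC subunit, an ATPase that is degraded after G1 in human cells. Its transcript (chromosome 1, 52372829 to 52404459, minus strand, GRCh38) had 528, 380 and 335 normalized counts in 22d replicates 1 to 3, against 1787, 1487 and 1597 in DMSO replicates 1 to 3. The groups did not overlap, and 22d replicate 1 was the highest of its group. The log2 fold change was -1.99 (SE 0.16, 95% interval -2.33 to -1.65, limma adjusted p = 4.8e-07), which left 25.1% of the DMSO level.

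ORC6 encodes the smallest subunit, which is held to the complex less tightly than the others in human cells. It had 172, 220 and 151 normalized counts with 22d, against 1014, 786 and 791 with DMSO (chromosome 16, 46689643 to 46698394, plus strand). Even the highest 22d library stood far below the lowest DMSO library. By limma the adjusted p was 2.6e-07 for a log2 fold change of -2.26 (SE 0.16), the largest fall among the ORC genes.

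ORC2 and ORC3 encode subunits that bind each other in the core of the complex. ORC2 (chromosome 2, 200908973 to 200963680, minus strand) had 429, 402 and 341 normalized counts with 22d and 366, 423 and 465 with DMSO. ORC3 (chromosome 6, 87590067 to 87667453, plus strand) had 205, 188 and 156 with 22d and 217, 175 and 233 with DMSO. For both genes the groups overlapped. The log2 fold change of ORC2 was -0.10 (95% interval -0.41 to 0.21, limma adjusted p = 0.57) and that of ORC3 was -0.18 (95% interval -0.55 to 0.18, limma adjusted p = 0.37), so a fall of the size seen for ORC1 lay outside both intervals. With scaling by library totals both had the opposite sign, at 0.12 for ORC2 and 0.037 for ORC3, and neither passed.

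ORC5 encodes an ATP-binding subunit of the core. Its libraries held 304, 245 and 240 normalized counts with 22d, against 308, 313 and 375 with DMSO (chromosome 7, 104126341 to 104208047, minus strand). The groups did not overlap, although 22d replicate 1 lay just under DMSO replicate 1. ORC5 did not pass in limma's test, at -0.34 on the log2 scale with an SE of 0.15 (adjusted p = 0.069). Without 22d replicate 1 it passed at -0.45 (adjusted p = 0.020), and with quantile normalization at -0.42 (adjusted p = 0.026).

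ORC4, which encodes another ATP-binding subunit, was the exception in direction. It had 374, 321 and 284 normalized counts with 22d, against 184, 205 and 235 with DMSO (chromosome 2, 147930397 to 148021604, minus strand). Each 22d library exceeded each DMSO library, by 0.65 on the log2 scale between the means (SE 0.16, adjusted p = 0.0033 by limma). The rise was also called without each library in turn, at 0.54 to 0.74. ORC4 shares exon bases with 2 genes on the opposite strand, 430 with the activin receptor gene ACVR2A and 157 with MBD5, of 8915 merged exon bases. ACVR2A rose too, by 1.56 on the log2 scale (limma adjusted p = 0.0019), and MBD5 rose to 124 ± 37.6 with 22d, against 59.4 ± 8.67 with DMSO (SD, n = 3 each). Because no strand setting of the counting is given in the sources used here, reads in the shared bases cannot be told apart, and their part in the rise of ORC4 was not tested.

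**Figure D2:**
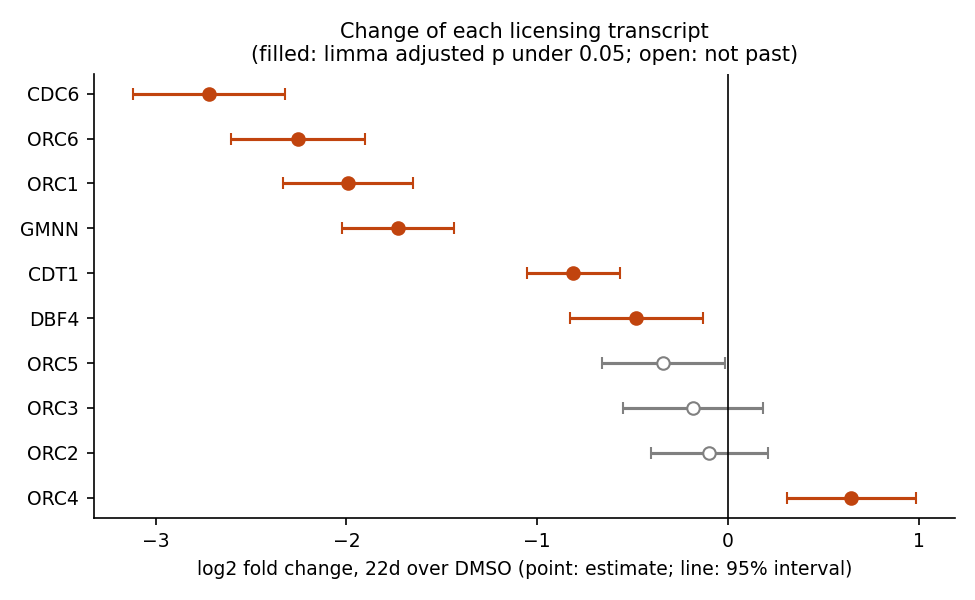
Log2 fold change of 22d over DMSO (x axis) with its 95% interval for each transcript, ordered by size; filled points passed limma's test and open points did not. CDC6 lies lowest at -2.72, the intervals of ORC2 and ORC3 include 0, and ORC4 lies at 0.65. Intervals are not adjusted for the number of genes tested, and that of ORC5 leaves out 0 although ORC5 did not pass.

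Set on a common scale of normalized counts per kilobase of merged exon, the ORC transcripts stood in a different order with 22d than with DMSO. With 22d, ORC1 averaged 131 ± 32.0, ORC5 70.7 ± 9.52, ORC2 66.9 ± 7.75, ORC3 49.6 ± 6.76, ORC6 42.0 ± 8.19 and ORC4 36.6 ± 5.11 per kilobase (SD, n = 3). With DMSO, ORC1 averaged 514 ± 48.0, ORC6 200.4 ± 30.2, ORC5 89.2 ± 9.99, ORC2 71.7 ± 8.49, ORC3 56.4 ± 8.12 and ORC4 23.3 ± 2.84 per kilobase (SD, n = 3). With 22d the neighbours ORC5 and ORC2, ORC3 and ORC6, and ORC6 and ORC4 differed by less than the larger SD of the pair. With DMSO each step in the order exceeded it. ORC6 thus stood next to ORC1 with DMSO and among the lowest subunits with 22d on this scale. The order depends on the length used: per kilobase of the longest coding transcript, ORC6 averaged 107 ± 20.8 with 22d and 508 ± 76.6 with DMSO, beside 131 ± 32.0 with 22d and 514 ± 48.0 with DMSO for ORC1, and ORC5 reached 134 ± 18.1 with 22d and 170 ± 19.0 with DMSO. By that length the 22d mean of ORC6 lay above those of ORC2 (90.6 ± 10.5) and ORC3 (72.9 ± 9.93), and so was not among the lowest.

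**Figure D3:**
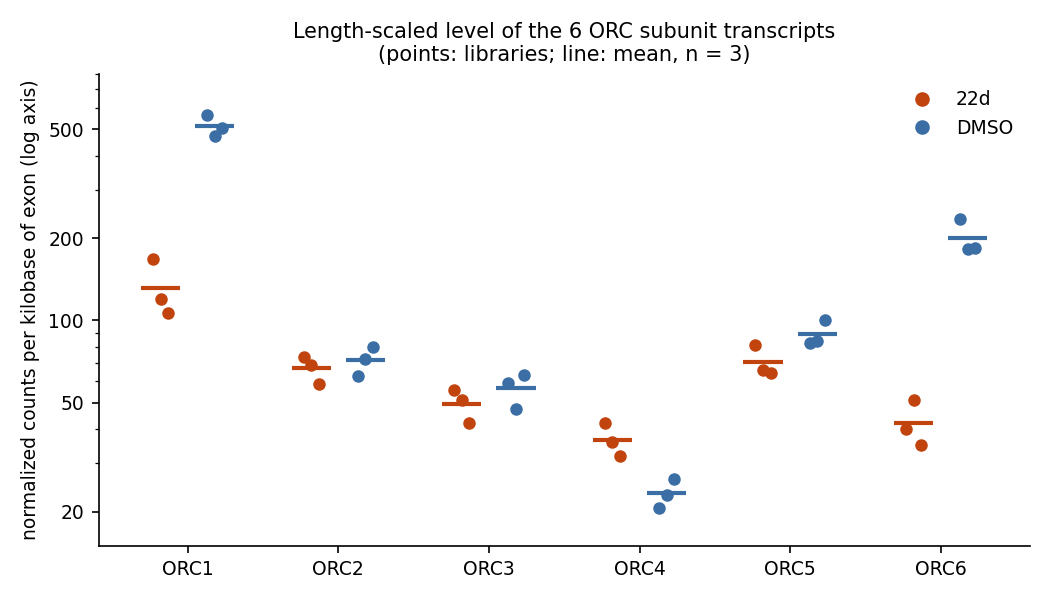
Normalized counts per kilobase of merged exon (y axis, log scale) of the 6 ORC subunit transcripts in each library with 22d and with DMSO; lines are means of 3. The range between the subunits narrows with 22d: ORC1 comes down towards the others, the mean of ORC6 drops below those of ORC2, ORC3 and ORC5, and ORC4 moves up. Per kilobase of the longest coding transcript, not drawn here, the 22d mean of ORC6 lies above those of ORC2 and ORC3.

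CDC6 encodes the ATPase that joins ORC in G1 and helps to load the helicase. Its transcript (chromosome 17, 40287633 to 40304657, plus strand) held 187, 273 and 166 normalized counts with 22d, against 1639, 1135 and 1321 with DMSO. The groups were far apart, with 22d replicate 2 and DMSO replicate 2 the nearest pair. The log2 fold change was -2.72 (SE 0.18, 95% interval -3.12 to -2.32, limma adjusted p = 1.7e-07), a level 6.59-fold lower with 22d. In order of log2 fold change from the lowest, CDC6 stood at place 44 of the 13297 genes tested.

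CDT1, the partner of CDC6 in loading, changed far less. It had 3537, 3177 and 2948 normalized counts with 22d, against 5378, 6372 and 5214 with DMSO (chromosome 16, 88803213 to 88809258, plus strand). All 3 libraries with 22d lay below the 3 with DMSO, and the difference was -0.81 on the log2 scale (SE 0.11, adjusted p = 5.3e-05 by limma), which left 57.0% of the DMSO level. Per kilobase of merged exon CDT1 was the most abundant of the 10 transcripts in both groups, with a mean ± SD over 3 libraries of 965 ± 89.0 with 22d and 1695 ± 188 with DMSO.

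GMNN, the gene of the CDT1 inhibitor geminin, fell more steeply than CDT1. Its libraries held 295, 277 and 225 normalized counts with 22d, against 912, 823 and 900 with DMSO (chromosome 6, 24774931 to 24786099, plus strand). Both groups were tight and well separated. GMNN changed by -1.73 on the log2 scale (SE 0.13, adjusted p = 4.5e-07 by limma), to 30.2% of the DMSO level.

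DBF4 encodes the subunit that activates the kinase CDC7. It had 284, 339 and 245 normalized counts with 22d, against 422, 334 and 455 with DMSO (chromosome 7, 87876216 to 87909541, plus strand). The groups overlapped, since 22d replicate 2 lay above DMSO replicate 2. In limma's test DBF4 passed at -0.48 on the log2 scale (SE 0.16, adjusted p = 0.022). It did not pass when 22d replicate 3 was left out (-0.37, adjusted p = 0.099), nor when DMSO replicate 1 (-0.44, adjusted p = 0.071) or DMSO replicate 3 (-0.39, adjusted p = 0.086) was. Nor did it pass with scaling by library totals (-0.26, adjusted p = 0.22). DBF4 shares 142 exon bases with SLC25A40 on the opposite strand. Its processed pseudogene DBF4P1 had no row under that name, so its reads could not be examined.

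All 10 members were lowest among the 22d libraries in replicate 3, whatever the direction of their change; this held for 34.2% of the genes tested and, with scaling by library totals, for 10 of 10 members and 35.5% of genes. The members share these libraries, so this is 1 pattern and not 10. Without 22d replicate 3 the count of members called lower was 5, and without 22d replicate 1 it was 7. In the same order, those fits called 7025 and 7262 of the 13297 genes tested, of which 48.3% and 47.9% were higher.

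Ratios within a library show unequal change, since scaling and transcript length cancel in their difference between groups. Values are log2 ratios of normalized counts plus 1, with the exact two-sided permutation test over libraries; with 3 against 3 its smallest possible p is 0.1, and each of the 5 ratios computed gave 0.1, also after adjustment over the 5, so none can pass 0.05. ORC1 over ORC2 was 0.30, -0.08 and -0.03 in the 22d libraries, against 2.28, 1.81 and 1.78 in the DMSO libraries, a difference of -1.89. ORC6 over ORC2 was -1.31, -0.87 and -1.17 with 22d, against 1.47, 0.89 and 0.76 with DMSO, a difference of -2.16. The 3 libraries of each group kept to their own side in both ratios.

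CDT1 over GMNN, the loader over its inhibitor, was 3.58, 3.52 and 3.71 with 22d, against 2.56, 2.95 and 2.53 with DMSO. This ratio was therefore higher in each 22d library, by 0.92 on average, although both transcripts fell. CDC6 over CDT1 was -4.24, -3.54 and -4.14 with 22d, against -1.71, -2.49 and -1.98 with DMSO, so that its difference was -1.91. DBF4 over CDC7 was 0.23, 0.25 and 0.24 with 22d, against -0.39, -0.57 and -0.52 with DMSO. CDC7 itself had 242, 284 and 207 normalized counts with 22d, against 555, 496 and 655 with DMSO, and changed by -1.22 on the log2 scale (SE 0.16, adjusted p = 2.5e-05 by limma).

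**Figure D4:**
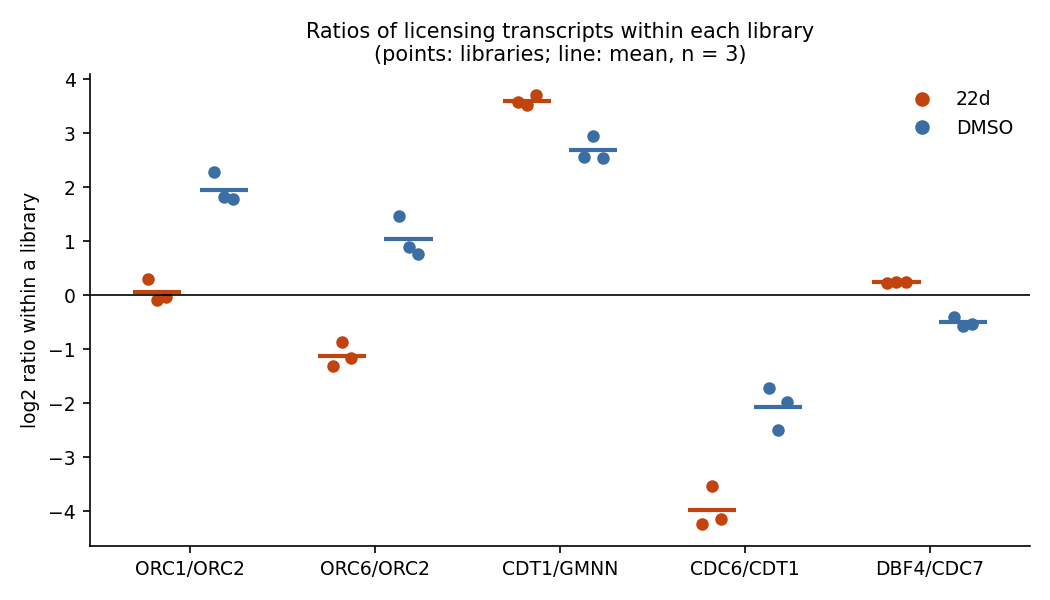
Log2 ratio of normalized counts within each library (y axis) for 5 pairs of licensing transcripts with 22d and with DMSO; points are libraries and lines means of 3. The groups do not overlap in any of the 5 pairs, and CDT1/GMNN and DBF4/CDC7 are the 2 that lie higher with 22d.

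Promoters of these genes are shown because several members fell together and E2F sites are known in some of them. The sequences are RefSeq windows on GRCh38.p14 from 250 bases before to 50 bases after the start site, given 5′ to 3′ on the gene's strand, and capitals mark matches on either strand to any of the E2F core words searched. These were TTCCCGC, then the variant TTCGCGC, then the variant TTGCCGC and lastly the variant TTGGCGC. All 10 members had a window, and ORC4 and GMNN had 2 each; the second window of GMNN is printed.

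ORC1 promoter, chr1:52404374-52404673, minus strand: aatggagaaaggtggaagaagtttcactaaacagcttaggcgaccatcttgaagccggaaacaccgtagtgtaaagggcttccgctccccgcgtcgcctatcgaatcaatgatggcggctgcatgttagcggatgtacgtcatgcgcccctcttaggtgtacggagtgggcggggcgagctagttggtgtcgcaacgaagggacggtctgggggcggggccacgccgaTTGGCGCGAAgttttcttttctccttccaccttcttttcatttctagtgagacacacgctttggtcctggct
CDC6 promoter, chr17:40287629-40287928, plus strand: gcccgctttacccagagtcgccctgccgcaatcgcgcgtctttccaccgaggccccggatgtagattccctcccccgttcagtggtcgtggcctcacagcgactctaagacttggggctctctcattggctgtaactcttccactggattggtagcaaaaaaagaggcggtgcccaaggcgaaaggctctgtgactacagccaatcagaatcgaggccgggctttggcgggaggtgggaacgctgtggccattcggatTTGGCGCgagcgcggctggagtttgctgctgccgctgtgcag
CDT1 promoter, chr16:88803539-88803838, plus strand: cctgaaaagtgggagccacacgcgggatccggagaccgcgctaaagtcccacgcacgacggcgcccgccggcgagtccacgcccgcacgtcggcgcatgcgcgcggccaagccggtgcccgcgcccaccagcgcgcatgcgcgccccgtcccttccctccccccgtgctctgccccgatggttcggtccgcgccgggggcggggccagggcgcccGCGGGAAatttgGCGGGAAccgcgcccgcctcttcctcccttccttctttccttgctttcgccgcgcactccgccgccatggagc
GMNN promoter, chr6:24775163-24775462, plus strand: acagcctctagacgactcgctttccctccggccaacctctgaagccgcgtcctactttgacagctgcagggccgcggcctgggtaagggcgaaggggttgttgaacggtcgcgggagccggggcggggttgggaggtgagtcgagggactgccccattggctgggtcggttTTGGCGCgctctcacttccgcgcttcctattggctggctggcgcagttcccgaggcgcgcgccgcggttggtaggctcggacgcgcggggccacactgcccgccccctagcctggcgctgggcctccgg
ORC6 promoter, chr16:46689409-46689708, plus strand: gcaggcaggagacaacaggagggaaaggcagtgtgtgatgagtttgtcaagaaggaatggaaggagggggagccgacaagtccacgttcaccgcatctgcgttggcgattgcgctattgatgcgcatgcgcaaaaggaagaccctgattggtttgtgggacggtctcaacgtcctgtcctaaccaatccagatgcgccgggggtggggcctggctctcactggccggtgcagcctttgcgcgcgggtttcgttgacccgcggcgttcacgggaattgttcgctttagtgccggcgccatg
ORC3 promoter, chr6:87589885-87590184, plus strand: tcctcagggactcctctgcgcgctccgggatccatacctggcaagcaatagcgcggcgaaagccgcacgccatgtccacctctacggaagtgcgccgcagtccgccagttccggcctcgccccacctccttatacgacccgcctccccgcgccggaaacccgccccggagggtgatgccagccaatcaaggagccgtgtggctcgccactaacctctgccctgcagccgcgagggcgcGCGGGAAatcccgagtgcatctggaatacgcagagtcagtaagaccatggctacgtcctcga

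An E2F word was found for 5 of the 10 members, beside 15.3% of the 27305 genes with a window. Of the 6 members that fell, ORC1, CDC6, CDT1 and GMNN held one, while ORC6 and DBF4 did not. Of the other 4, ORC3 held one, and ORC2, ORC4 and ORC5 did not. In ORC1 the word TTGGCGC began at base -22 from the start site and overlapped TTCGCGC on the other strand, which began at base -19. CDT1 had 2 separate copies of TTCCCGC on the other strand, beginning at bases -35 and -23, and CDC6 had TTGGCGC from base 9 after the start. A match is a description of letters and not a measured site, and a window without a match says nothing on the factor. All 10 members passed the filter on low values, but the 27305 genes of the comparison were not limited to genes that did.

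Other words were searched on both strands of the same windows, and shares of all genes are again over the 27305 genes with a window. The CCAAT box, read as CCAAT, was found for 6 of 10 members (ORC1, ORC2, ORC3, ORC6, CDC6 and GMNN), beside 39.7% of all genes; in ORC1 it overlapped the E2F word. The E-box CACGTG was found for ORC4 and GMNN, beside 8.77% of all genes. In GMNN it lay in the first window, which is not printed here. The cell cycle homology word TTTGAA was found for DBF4, beside 18.2% of all genes.

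The profile over the 6 libraries, taken as log2(value + 1) minus its mean, was compared by root mean square distance with 10259 genes that averaged at least 100 normalized counts. The 4 genes nearest to CDC6 were RPL22L1 (distance 0.12), the helicase genes MCM6 and MCM4 (0.16 each) and WDR76 (0.17). Those nearest to ORC2, the member with the smallest change, were GNAI3 (0.047), FAM3C (0.056), HTATIP2 (0.060), TARS (0.061) and TP53BP1 (0.066).

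Other genes of the pathway were taken from 5 lists, of which 54 genes were tested, with 46 lower, 3 higher and 5 not past the test, and a median log2 fold change of -1.40. Over all 13297 genes tested, 29.6% were called lower and 28.5% higher, with a median of 0.0055; the counts for each list below stand against these shares. The helicase that licensing loads fell as a whole: 6 of 6 subunit genes were lower, with MCM2 at -2.98, MCM4 at -2.86, MCM5 at -2.66, MCM7 at -2.54, MCM6 at -2.52 and MCM3 at -2.27. Loading cofactors changed little. LRWD1, whose product binds ORC on chromatin, had a log2 fold change of -0.55, the histone H4 methyltransferase gene KMT5A (listed as SETD8) -0.53 and the MCM-binding gene MCMBP -0.37, so 3 of 5 were called lower. RIF1 (-0.40, adjusted p = 0.088) and the acetyltransferase gene KAT7 (-0.10, adjusted p = 0.48) did not pass in limma's test.

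Genes that turn licensed origins into forks were lower in 17 of 17 cases, with a median of -2.15. MCM10, GINS2, CDC45 and GINS1, whose products act with the helicase at the start of unwinding, had log2 fold changes of -3.26, -3.11, -3.07 and -2.85. GINS4 stood at -2.42, GINS3 at -2.25, RECQL4 at -2.25 and TICRR at -2.15. The S phase kinase gene CDK2 stood at -2.16 and the cyclin genes CCNE1, CCNA2 and CCNE2 between -2.03 and -1.79. Smaller falls were those of CDC7 (-1.22), its second activator DBF4B (-0.99), MTBP (-0.96), TOPBP1 (-0.68) and DONSON (-0.48).

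Among 14 genes for the turnover or restraint of licensing proteins, 11 were lower, 1 was higher and 2 did not pass. DTL, whose product directs CDT1 to a CUL4 ubiquitin ligase at PCNA, had the largest fall at -2.63, and PCNA stood at -1.41. Also lower were CDC20 (-2.37), CCNF (-2.13), SKP2 (-1.72), FBXO5 (-1.14), RBX1 (-0.82), FZR1 (-0.68), DDB1 (-0.64), CUL1 (-0.45) and SKP1 (-0.41). The scaffold gene CUL4B rose by 0.72 (SE 0.17, limma adjusted p = 0.0028), while its paralog CUL4A stood at -0.16 (adjusted p = 0.18) and FBXO31 at -0.20 (adjusted p = 0.24) in limma's test.

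Of 13 E2F and pocket protein genes, 12 were tested, with 9 lower, 2 higher and 1 not past. The activator genes E2F2 and E2F1 had log2 fold changes of -3.13 and -2.48, and E2F8 of -2.18. Lower too were the partner gene TFDP1 (-1.44), the pocket protein gene RBL1 (-1.38), E2F7 (-1.36), E2F4 (-0.94), E2F3 (-0.46) and E2F6 (-0.32). The other pocket protein genes went up: RB1 had 1647 ± 449 normalized counts with 22d and 1132 ± 90.6 with DMSO (log2 fold change 0.51, limma adjusted p = 0.014), and RBL2 had 2216 ± 219 with 22d and 1679 ± 137 with DMSO (0.40, limma adjusted p = 0.0084; SD, n = 3 each). TFDP2 did not pass (-0.26, limma adjusted p = 0.14), and E2F5 lay under the filter with means of 7.31 normalized counts with 22d and 9.75 with DMSO.

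**Figure D5:**
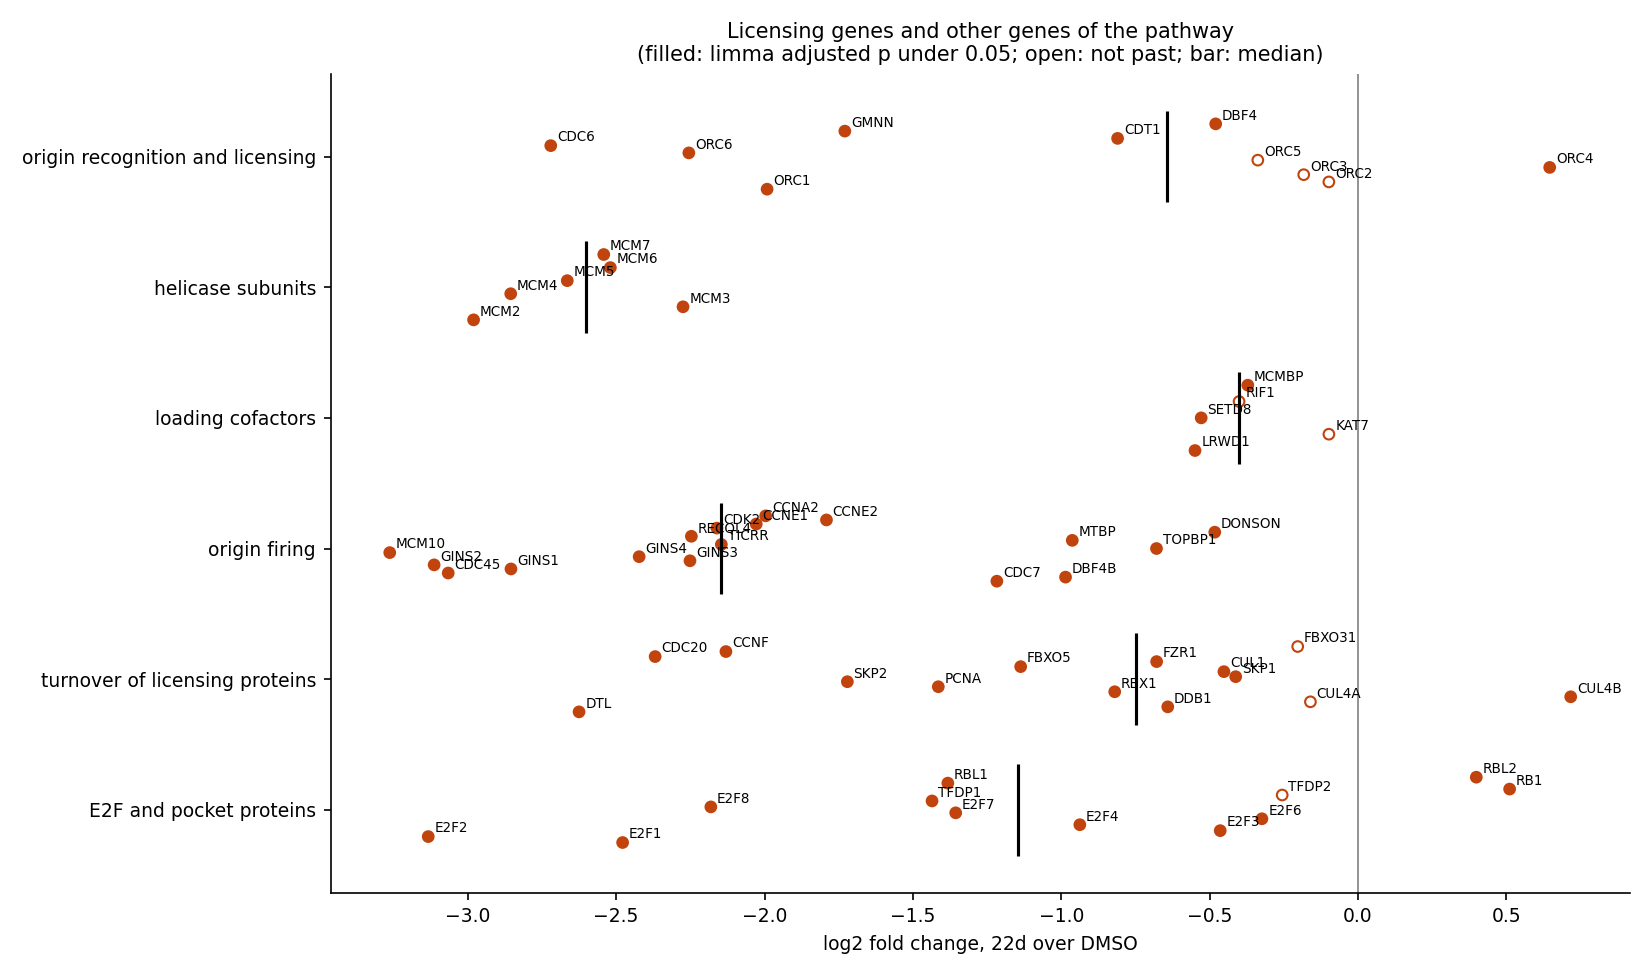
Log2 fold change of 22d over DMSO (x axis) for the 10 licensing genes and 5 lists of other pathway genes (rows); each point is a gene, filled where it passed limma's test, and bars are list medians. The helicase genes lie together between -2.98 and -2.27, whereas the licensing genes range from -2.72 to 0.65.

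Directions depend on the scaling for the genes that changed least. With scaling by library totals, the median log2 fold change over all genes tested was 0.22. It gave 8044 calls among the 13297 genes, 65.6% of them higher, against 7718 calls, 49.0% higher, with the deposited scaling. Under library totals, besides the turned signs of ORC2 and ORC3, 5 of 10 members were called lower and ORC4 higher, at 0.87. In the pathway lists KAT7, CUL4A and FBXO31 changed sign under it, as did KAT7 and CUL4A under quantile normalization. CUL4B, RB1 and RBL2 were called higher under both scalings.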

How the data were processed

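The submitters' processing notes name STAR, HTSeq, DESeq2, cutadapt and FastQC, and the build hg38; versions, annotation release and strand setting are not given in the sources used here. The deposited signal per library is, per the file headers and the values, a read count divided by 1 size factor per library: after multiplication 100% were whole reads, to a tolerance of 0.001. The authors' deposited table also gives a log2 fold change and an adjusted p-value per gene, with changes of -2.64 for CDC6 and 0.63 for ORC4.

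Limma-trend (limma 3.58.1, R 4.3.3) was run on log2(value + 1) of all genes with a mean of at least 10, with Benjamini-Hochberg adjustment and no block. edgeR 4.0.16 and DESeq2 1.42.0 on the recovered reads were alternatives, as were other scalings, filters, pseudocounts and leaving out each library. On these reads edgeR called 7723 genes, against 7718 with limma. Figures used Python 3.11.15 and matplotlib 3.10.9. The added 1 shrinks changes of low genes. Positions and exon lengths are from GENCODE 29 (GRCh38), promoters from RefSeq. Members, lists and the rule for named genes (each member, each pathway gene, the 5 nearest profiles) were chosen with earlier results of these data known. One of the nearest profiles is not reported here. A planned comparison of protein sequences was not made. Replicates differed by more than sampling noise in each pair (chi-square per degree of freedom 10.7 to 26.9), so no library was treated as deposited a second time; this does not show that they came from separate cultures.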

Additional observations from a re-analysis of the deposited data

How the results depend on the processing

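Across 15 alternatives (other pseudocounts, filters and scalings, edgeR, DESeq2, each library left out, and the replicate block), CDC6, ORC6, ORC1, GMNN and CDT1 were called lower and ORC4 higher each time, with log2 fold changes of -2.93 to -2.50 for CDC6, -2.40 to -2.03 for ORC6, -2.18 to -1.77 for ORC1, -1.81 to -1.51 for GMNN, -0.88 to -0.50 for CDT1 and 0.54 to 0.87 for ORC4. DBF4 was not called in 4 of them, and ORC5 was called in 2. Library totals reversed ORC2 (0.12) and ORC3 (0.037), neither of which passed. Between 5 and 7 members were called lower, between 40 and 47 pathway genes and between 6682 and 8044 genes in all; with 1 library left out these ranges were 5 to 7, 44 to 47 and 6682 to 7428. The 5 ratios kept their direction in each of the 9 alternatives run for them. Most of these could not have turned a ratio. The groups overlap in no ratio, so leaving out a library cannot reverse it, and the replicate block leaves the difference unchanged. Only the other pseudocounts could have done so.

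Deviations from the group means correlated at -0.052, -0.079 and -0.24 between libraries of the same replicate number. Between libraries of different numbers they correlated at -0.16 to 0.32. Deviations of 3 libraries sum to 0 within a group, so these values cannot show whether libraries of the same number are paired. With the replicate block 7419 genes were called, and no member's call changed. Between 162 and 440 reads per library stand behind ORC2 to ORC5. Whether their depth or the spread between libraries limits the test of ORC2 and ORC3 was not tested.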
